A study of Mus musculus with 12 samples.

Results

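The tryptophan and kynurenine pathway was described here by 10 genes, Ido1, Ido2, Tdo2, Afmid, Kmo, Kynu, Haao, Acmsd, Qprt and Aadat, out of the 37681 genes counted in kidney cortex of TRACK mice. The members were chosen by gene symbol, matched from the Ensembl identifier, and all 10 were found. The pathway was selected with the TG+ against TG− differences of these same libraries known, so the values of its members in that contrast are a description and carry no test. RNA was sequenced from the cortex of 3 TG+ and 3 TG− mice, with 1 library from each of the 2 kidneys of a mouse. TG+ mice carry the TRACK transgene gamma-HIF1alphaM3, a mutant, constitutively active HIF1α that is driven in the proximal tubule, and TG− mice are their littermates without it. All 6 mice were C57BL/6 males, 18 months old and untreated, and a thin outer slice of cortex was taken, so that every library holds RNA of all cell types of that slice. The mouse was the unit of replication, and the 2 kidneys of a mouse were summed. Mice are named in the order 43-29, 43-49 and 43-75 for TG+ and 43-26, 43-50 and 43-76 for TG− throughout.

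Between 21888584 and 33704850 reads were counted on genes per library, and between 48052131 and 60506785 per mouse. Levels are CPM, reads scaled to the TMM-normalized library size. Hif1a stood at 91.7, 109 and 86.3 CPM in the TG+ mice and at 107, 103 and 103 CPM in the TG− mice, and the sources used here do not state if transgene reads count toward it, so this gene does not check the labels. Markers of the cell types in the slice also differed between the groups. The 10 proximal tubule markers summed to 26000 to 29000 CPM in TG+ and 34300 to 36900 CPM in TG−, with all 10 log2 fold changes below 0 (median -0.56). Kap, the most abundant of them, differed least (-0.078). The 8 macrophage and dendritic cell markers summed to 504 to 549 CPM in TG+ against 278 to 351 CPM in TG−, and the 8 lymphocyte markers to 337 to 572 CPM against 83.5 to 118 CPM. Endothelial markers (461 to 487 against 269 to 356 CPM) and stromal markers (212 to 290 against 138 to 173 CPM) also had higher sums in TG+, whereas the sums for other nephron segments and podocytes overlapped (3590 to 4920 against 3900 to 4030 CPM).

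Most tryptophan that is not built into protein is broken down along the kynurenine pathway. A dioxygenase opens the indole ring, a formamidase releases kynurenine, and the next enzymes lead through 3-hydroxykynurenine and 3-hydroxyanthranilate to an unstable intermediate, aminocarboxymuconate semialdehyde. That intermediate either closes by itself to quinolinate, the precursor of NAD made from tryptophan, or is decarboxylated and oxidised toward acetyl-CoA. Kynurenine can also leave the main route by transamination to kynurenic acid. Liver and the kidney proximal tubule are the tissues best known for carrying the later steps.

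Promoter sequence was examined for 6 of the 10 members (Kmo, Tdo2, Qprt, Aadat, Afmid and Haao). The 250 bases before the RefSeq start on GRCm38.p6 are shown, 5′ to 3′ on the gene's own strand, for the 3 abundant members that were lower in every TG+ mouse (Afmid, Kmo and Qprt) and for one that hardly differed (Haao). Capitals mark a match to ACGTG or GCGTG, the cores that HIF binds (the second is also the core bound by the aryl hydrocarbon receptor), or to TTCNNNGAA, the STAT consensus, each searched on both strands. The windows are chr11:117825669-117825918 (+) for Afmid, chr1:175631943-175632192 (+) for Kmo, chr7:127122030-127122279 (−) for Qprt and chr17:83846791-83847040 (−) for Haao.
Afmid: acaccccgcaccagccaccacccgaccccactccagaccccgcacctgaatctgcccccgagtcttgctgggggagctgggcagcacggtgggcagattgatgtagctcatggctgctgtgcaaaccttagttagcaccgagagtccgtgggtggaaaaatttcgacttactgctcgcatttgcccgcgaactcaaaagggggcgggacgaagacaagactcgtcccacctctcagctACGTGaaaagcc
Kmo: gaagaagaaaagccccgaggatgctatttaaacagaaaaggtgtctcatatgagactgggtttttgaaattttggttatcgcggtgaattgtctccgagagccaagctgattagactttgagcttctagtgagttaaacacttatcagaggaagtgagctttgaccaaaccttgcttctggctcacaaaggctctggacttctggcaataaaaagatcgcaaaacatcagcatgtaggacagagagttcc
Qprt: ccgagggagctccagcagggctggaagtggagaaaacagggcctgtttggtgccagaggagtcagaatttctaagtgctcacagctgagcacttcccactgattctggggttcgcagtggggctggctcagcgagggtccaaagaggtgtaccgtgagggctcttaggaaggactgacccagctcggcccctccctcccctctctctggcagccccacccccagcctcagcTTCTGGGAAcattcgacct
Haao: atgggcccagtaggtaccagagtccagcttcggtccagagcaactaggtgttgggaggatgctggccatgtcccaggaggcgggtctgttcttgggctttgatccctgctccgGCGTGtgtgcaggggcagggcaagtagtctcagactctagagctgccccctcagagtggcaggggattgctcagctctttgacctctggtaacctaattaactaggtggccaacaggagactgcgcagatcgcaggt

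Afmid held ACGTG on its own strand, 12 to 8 bases before the start. Haao held GCGTG, 137 to 133 bases before the start, and Tdo2 held it on the other strand, 194 to 190 bases before the start. Qprt held the STAT consensus 19 to 11 bases before the start. Kmo and Aadat held none of the 3 motifs in this window. For comparison, ACGTG was present in 16.6%, GCGTG in 28.2% and TTCNNNGAA in 7.02% of all 32851 promoter windows of the same length. A match describes the letters of the window and is not evidence of binding. These starts are those of RefSeq, and all of them except that of Afmid lie inside the span that GENCODE gives the gene, so the matches in Qprt, Haao and Tdo2 were read against the RefSeq start alone.

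Of the 10 members, 9 had enough reads to be tested in the fit across all 19399 genes, and Ido1 did not. At the threshold of the study (adjusted p below 0.01 and a fold change above 2 or below 0.5, from edgeR's quasi-likelihood test), 0 members were past it on the higher side, where 3.77% of all genes were, and 1 member, Ido2, on the lower side, where 0.211% of all genes were. With an adjusted p below 0.05 as the only condition, 1 member (Acmsd) was higher and 4 (Ido2, Afmid, Kmo and Qprt) were lower, against 15.4% and 10.9% of all genes. Acmsd did not pass this limit without mouse 43-29, 43-75, 43-50 or 43-76, nor Qprt without mouse 43-50 or with library size alone. Kynu did pass it, on the lower side, with DESeq2, without mouse 43-76 or with single kidneys as samples. That last fit counts the kidneys of a mouse as independent, which overstates the replication. Every TG+ mouse lay below every TG− mouse for 5 of the 9 members (Ido2, Afmid, Kmo, Kynu and Qprt) and above for 1 (Tdo2), where 20.8% and 23.4% of all genes separated in these directions. Since the pathway was selected on this contrast, nothing is read from these counts. The median log2 fold change of the 9 members was -0.31, and that of all genes tested was 0.01.

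**Figure D1:**
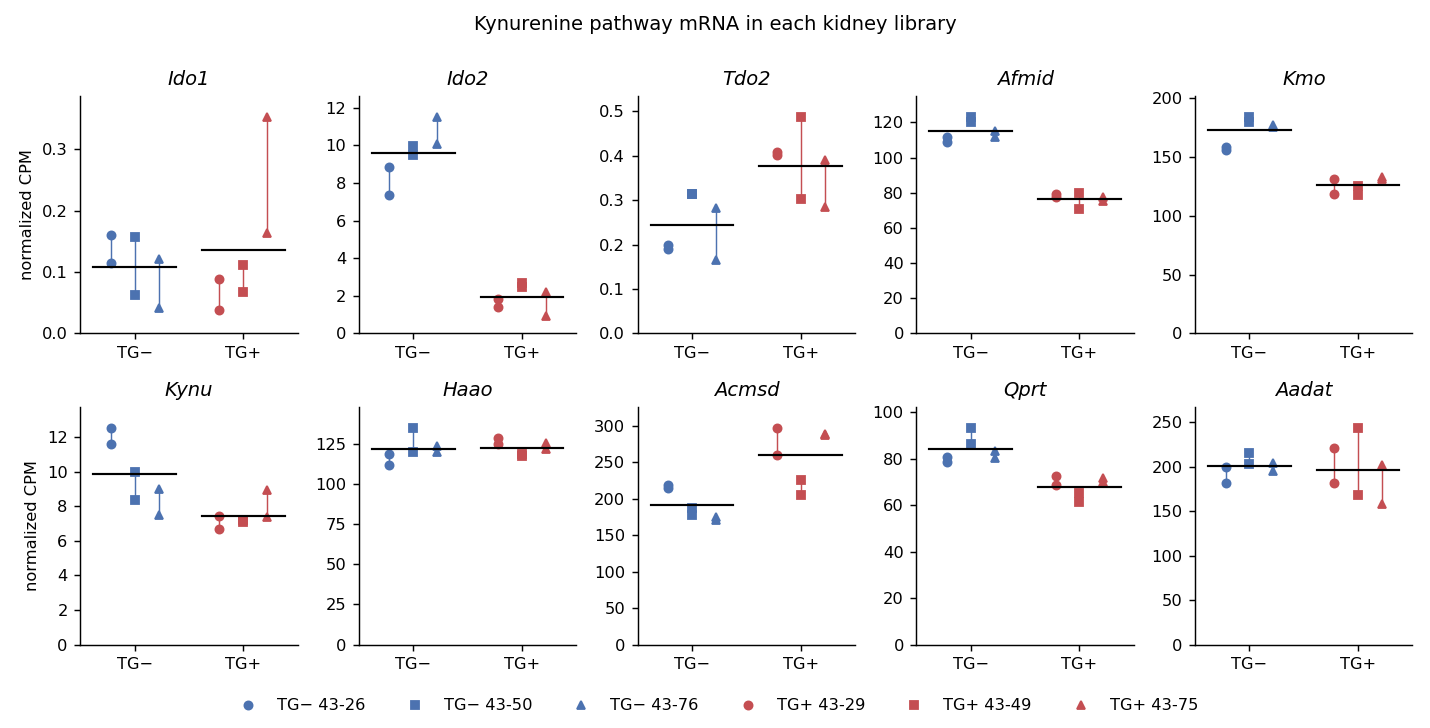
Normalized CPM (vertical axes, each starting at 0) of the 10 members in TG− (blue) and TG+ (red) mice. Each symbol is 1 kidney library, a line joins the kidneys of a mouse, and the black bar is the mean of the 3 mice. Ido2, Afmid, Kmo and Qprt lie lower in every TG+ library than in every TG− library, whereas Haao and Aadat overlap.

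The dioxygenases that open the pathway had low levels in both groups, and Ido2 was the member with the largest difference. Ido2 (ENSMUSG00000031549, chromosome 8 from 24531892 to 24576333 on GRCm38) is a low-activity relative of Ido1. It stood at 1.64, 2.56 and 1.55 CPM in the TG+ mice and at 8.15, 9.81 and 10.8 CPM in the TG− mice. The 2 groups were far apart, with the highest TG+ mouse, 43-49, well below the lowest TG− mouse, 43-26. The log2 fold change of Ido2 was -2.32 (standard error 0.20, n = 3 mice per group), which left 0.201 of the TG− level. These values rest on 78 to 145 reads per TG+ mouse and 418 to 560 reads per TG− mouse. Fewer cells that express a gene and less of its RNA per cell cannot be told apart in such bulk samples, and the part that the differences in cell type markers had in any of these values was not tested.

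Tdo2 (ENSMUSG00000028011, chromosome 3 from 81957090 to 81976202) encodes the tryptophan dioxygenase that dominates in liver. In the cortex it was barely detected, at 0.404, 0.388 and 0.339 CPM in TG+ and 0.195, 0.315 and 0.225 CPM in TG−. All TG+ mice were above all TG− mice, but by few reads. The 59 reads of the 3 TG+ mice correspond to 0.393 CPM before TMM scaling (95% exact Poisson interval 0.299 to 0.507) and the 39 reads of the TG− mice to 0.238 (0.169 to 0.325), and these intervals, which cover counting error only, overlap. Such an overlap is not a test of the difference. The log2 fold change of Tdo2 was 0.61 (standard error 0.27). Among 8 hepatocyte markers, Cps1 and Tat were at or near 0, with at most 4 reads in any mouse, whereas Ttr, the most abundant, stood at 76.9 to 97.1 CPM in TG+ and 27.5 to 42.7 CPM in TG−. The 8 hepatocyte markers together summed to 98.3 to 121 CPM in TG+ and 42.3 to 64.1 CPM in TG−, and most of that sum was Ttr. Of the 6 tested, 2 passed the threshold of the study, both higher (Ttr with a log2 fold change of 1.42 and Apoa1 with 3.64, from 0.0585 to 0.333 CPM in TG− to 2.01 to 2.13 CPM in TG+), and 3 of the other 4 had values below 0.

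Ido1 (ENSMUSG00000031551, chromosome 8 from 24584136 to 24597009) lies next to Ido2 and encodes the dioxygenase that interferon gamma induces in immune and other cells. It had 3, 5 and 13 reads in the TG+ mice and 7, 6 and 4 reads in the TG− mice. Over each group that is 0.14 CPM before TMM scaling (95% exact Poisson interval 0.0867 to 0.214) in TG+ and 0.104 (0.0603 to 0.166) in TG−. Each value lay inside the interval of the other group, so these few reads do not resolve a difference. The 13 reads of mouse 43-75 were the highest value, and 9 of them came from kidney 1.

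Afmid (ENSMUSG00000017718, chromosome 11 from 117825924 to 117839908), the formamidase that turns N-formylkynurenine into kynurenine, was lower in TG+ with little spread. It stood at 78.0, 74.8 and 76.1 CPM in the TG+ mice against 111, 122 and 114 CPM in the TG− mice. The TG+ mice lay within a few CPM of each other and far from the lowest TG− mouse. Its log2 fold change was -0.60 (standard error 0.06), or 0.662 of the TG− level. Afmid overlaps Tk1 on the opposite strand, and how the counting treated strand is not given in the sources used here. Tk1 had 5.93 to 7.48 CPM in TG+ and 7.83 to 8.84 CPM in TG−, a small amount beside Afmid.

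Kmo (ENSMUSG00000039783, chromosome 1 from 175620381 to 175662116) encodes kynurenine 3-monooxygenase, the enzyme of the outer mitochondrial membrane that commits kynurenine to the main route. Its level was 124, 121 and 132 CPM in TG+ and 158, 183 and 177 CPM in TG−. Again no TG+ mouse reached the lowest TG− mouse, 43-26. The log2 fold change was -0.46 (standard error 0.07). Kmo overlaps Fh1, the fumarate hydratase gene on the opposite strand, which had 157, 158 and 165 CPM in TG+ and 173, 184 and 175 CPM in TG−, so reads of one gene counted on the other would change the level of Kmo.

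Kynu (ENSMUSG00000026866, chromosome 2 from 43555329 to 43682715), the kynureninase that splits alanine from 3-hydroxykynurenine, was a low member with 7.02, 7.11 and 8.11 CPM in TG+ and 12.1, 9.30 and 8.25 CPM in TG−. The groups were separated only just, by the gap between mouse 43-75 (8.11) and mouse 43-76 (8.25). Its log2 fold change of -0.42 had a standard error of 0.15. Without the TG− mouse 43-26, whose level was the highest, the log2 fold change was -0.25.

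Haao (ENSMUSG00000000673, chromosome 17 from 83831156 to 83847963), the dioxygenase that opens the ring of 3-hydroxyanthranilate, had nearly the same level in both groups. It stood at 127, 118 and 124 CPM in TG+ and at 116, 129 and 122 CPM in TG−. The ranges lay over each other, with a mean of 123 ± 4.51 (SD, n = 3) in TG+ and 122 ± 6.27 in TG−. The log2 fold change was 0.0092 (standard error 0.06).

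After Haao the route divides, and of the 2 members that follow, Acmsd had the higher mean in TG+ and Qprt the lower one. Acmsd (ENSMUSG00000026348, chromosome 1 from 127729413 to 127767978) decarboxylates the unstable intermediate and so draws it away from NAD synthesis. It stood at 275, 214 and 287 CPM in TG+ and 218, 182 and 173 CPM in TG−. The groups overlapped, since the TG+ mouse 43-49 lay just below the TG− mouse 43-26. The log2 fold change was 0.44 (standard error 0.13), and leaving out single mice moved it between 0.35 and 0.56. Qprt (ENSMUSG00000030674, chromosome 7 from 127107114 to 127122226), which converts quinolinate to nicotinate mononucleotide, had 70.7, 62.7 and 70.5 CPM in TG+ and 79.8, 90.3 and 81.8 CPM in TG−. Every TG+ mouse was below every TG− mouse, a log2 fold change of -0.31 with a standard error of 0.07.

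Ratios of reads between members of the same library do not depend on the scaling of libraries. These ratios were formed after the levels had been seen and are given without a test. Acmsd had 3.90, 3.41 and 4.07 reads for each Qprt read in the TG+ mice and 2.73, 2.02 and 2.11 in the TG− mice. All 6 TG+ libraries (3.34 to 4.32) were above all 6 TG− libraries (1.91 to 2.74), although Acmsd alone overlapped. Kmo had 0.98, 1.02 and 1.06 reads for each Haao read in TG+ and 1.36, 1.42 and 1.45 in TG−. Afmid against Haao was the tightest ratio, with a mean of 0.621 ± 0.0113 (SD, n = 3 mice) in TG+ and 0.944 ± 0.0101 in TG−. Both ratios to Haao, the later step of the same route, were lower in every TG+ library than in every TG− library.

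Aadat (ENSMUSG00000057228, chromosome 8 from 60505932 to 60545677), an aminotransferase that makes kynurenic acid from kynurenine and also acts on 2-aminoadipate, had nearly the same mean level in both groups. It stood at 203, 206 and 180 CPM in TG+ and 192, 210 and 199 CPM in TG−, with a log2 fold change of -0.03 (standard error 0.07). The ranges overlapped, although the TG+ mouse 43-75 lay below every TG− mouse. For each Kmo read, the reads of Aadat numbered 1.64, 1.71 and 1.36 in TG+ and 1.22, 1.15 and 1.13 in TG−. Single kidneys of Aadat were more scattered, and by library this ratio overlapped between the groups (1.18 to 2.05 in TG+, 1.1 to 1.26 in TG−).

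Divided by exon length, the members fell into an upper set of 6 and a lower set of 4 in both groups. On the scale of CPM per kb of GENCODE exons, Aadat had the highest level in TG− with 92.1 ± 4.25 (SD, n = 3), followed by Acmsd with 67.4 ± 8.33, and the ranges of these neighbours did not overlap. Kmo (36.5), Afmid (32.6) and Qprt (31.7 CPM per kb) followed, each overlapping the next in range, and Haao had 26.1 CPM per kb. Ido2 (2.64), Kynu (1.61), Tdo2 (0.0631) and Ido1 (0.0591 CPM per kb) formed the lower set, in which Tdo2 and Ido1 overlapped in range.

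In TG+ the order of the upper set was Acmsd with 91.4 ± 13.9 and Aadat with 90.2 ± 6.65 CPM per kb, which overlapped, then Kmo (26.6), Haao (26.3), Qprt (25.7) and Afmid (21.6 CPM per kb). Kynu (1.2 CPM per kb) came before Ido2 (0.527 CPM per kb), the reverse of TG−. The split into 6 and 4 also held in the RPKM values that the authors deposited, but the order inside the upper set did not. By deposited RPKM, Haao had 101 in TG− and 99.3 in TG+, the first and second highest values of the pathway, since the gene lengths behind the RPKM differ from the GENCODE exon lengths and are not given. The order of the upper set therefore depends on the gene model used for length.

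**Figure D2:**
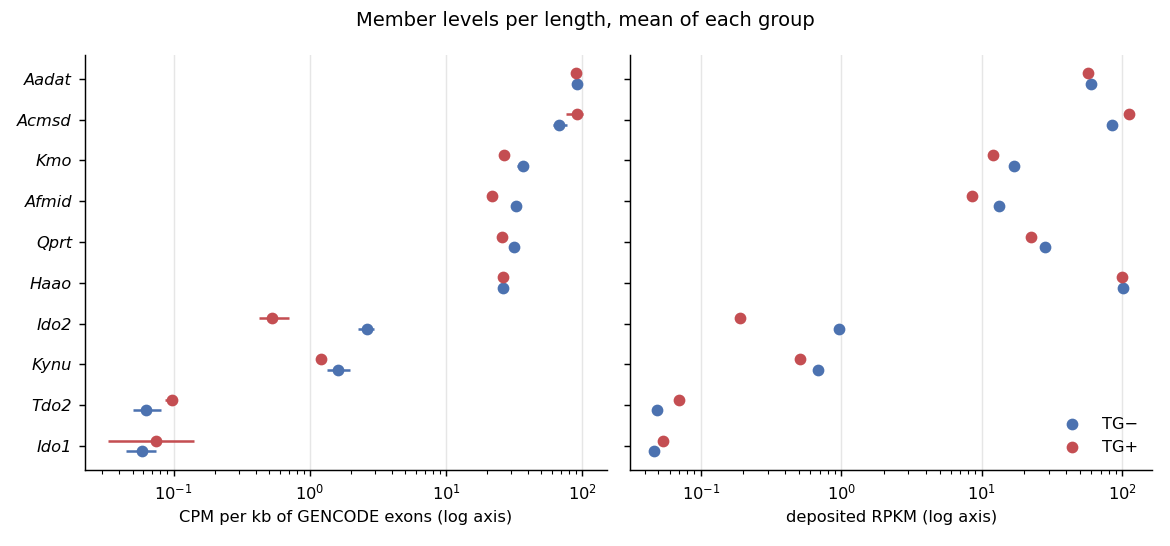
Mean level of each member per length on log axes, in TG− (blue) and TG+ (red). The left panel gives CPM per kb of GENCODE exons with lines from the lowest to the highest mouse, and the right panel the mean of the deposited RPKM, with Haao far to the right of its place in the left panel.

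The kidneys of a mouse gave a comparison that did not enter the choice of the members. Kidney 2 was compared with kidney 1 with the mouse as a block, in edgeR's quasi-likelihood test over 18944 genes, and 0 of the 9 members tested were called at an adjusted p below 0.05, where 0.0158% of all genes were called. At an unadjusted p below 0.05 the number of members was also 0. DESeq2 was not run on this comparison. Kidney numbers are those of the labels, which do not say which kidney is the left one, so number 1 in different mice may not be the same side. Haao had the smallest adjusted p of the members (0.881, log2 difference of kidney 2 minus kidney 1 of -0.05, kidney 2 higher in 1 of 6 mice).

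Within mice, the abundant members were close between the kidneys. The largest difference in any mouse was 1.08-fold for Qprt, 1.11-fold for Kmo, 1.12-fold for Haao, 1.13-fold for Afmid and 1.14-fold for Acmsd. Aadat, at a like level, differed by up to 1.45-fold, with 243 CPM in kidney 1 and 168 CPM in kidney 2 of mouse 43-49. In mouse 43-29 the direction was the other way, with 182 and 221 CPM. The largest difference of all was that of Ido2 in mouse 43-75, with 2.19 and 0.896 CPM (56 and 22 reads), and both kidneys of that mouse stayed below every TG− library.

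**Figure D3:**
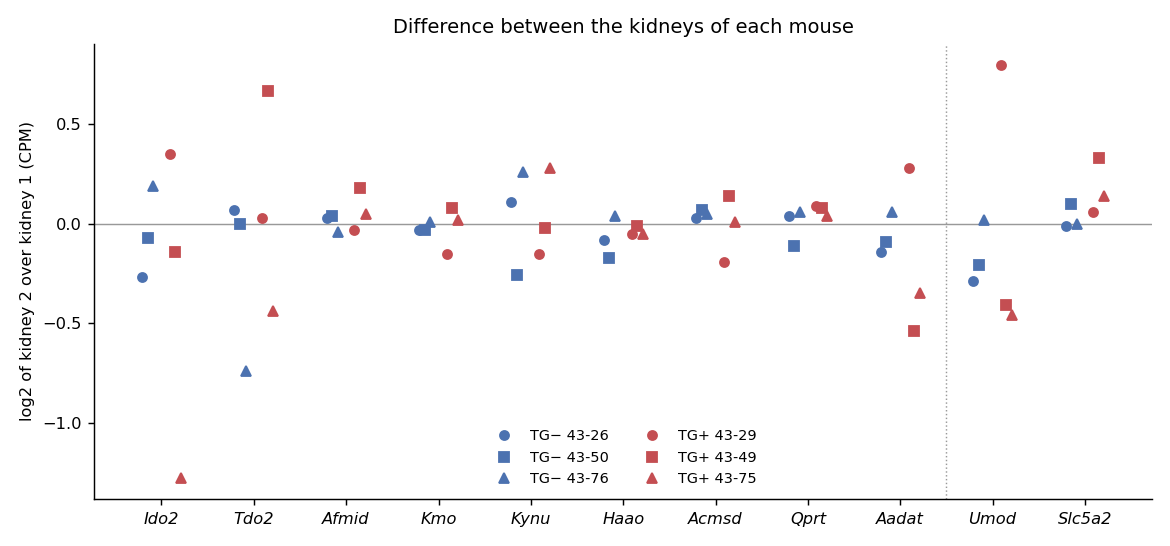
Log2 ratio of kidney 2 to kidney 1 (vertical axis) for the 9 members tested, and right of the dotted line for Umod and Slc5a2, markers of the thick ascending limb and the proximal tubule. Each symbol is 1 mouse, blue for TG− and red for TG+. Afmid, Kmo, Haao, Acmsd and Qprt stay near 0, whereas Aadat spreads from 0.28 in mouse 43-29 to -0.54 in mouse 43-49.

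Genes around the pathway were taken from 7 lists with 57 genes, of which 50 were tested. These lists too were chosen with earlier results of these data known, so their counts are a description beside the shares of all genes. At the threshold of the study, 2 of the 50 were higher in TG+ (Aox1 and Slc7a5) and 0 were lower, where 3.77% and 0.211% of all genes were. With an adjusted p below 0.05 alone, 12 rose and 13 fell, where 15.4% of all genes rose and 10.9% fell, and 18 of these 25 calls held without any 1 mouse. The same shares over all genes are the background of the counts for each list. DESeq2 called the same 2 genes higher and 1 gene, Dhtkd1, lower. The list that continues the route after Acmsd, together with the other kynurenine aminotransferases, had 5 of 6 genes lower and 0 higher at an adjusted p below 0.05, with a median log2 fold change of -0.43. The 10 proximal tubule markers had a median of -0.56, with 6 of 10 lower and 0 higher at the same limit, and their part in this list and in the NAD list was not tested. Of the 5 genes that fell in this list, Kyat1 was not called without mouse 43-75 (adjusted p = 0.0606 in edgeR's test), 43-26 (0.0503) or 43-76 (0.0625).

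Dhtkd1, a subunit of the 2-oxoadipate dehydrogenase, stood at 40.0, 42.2 and 39.9 CPM in TG+ and 77.0, 79.6 and 87.2 CPM in TG−. It fell to 0.501 of the TG− level (log2 fold change -1.0, standard error 0.06, adjusted p = 5.52e-05 in edgeR's test), just short of the fold limit. Gcdh, the glutaryl-CoA dehydrogenase that follows it and the most abundant gene of the list per length, fell from 347 to 376 CPM in TG− to 251 to 264 CPM in TG+ (log2 fold change -0.50, standard error 0.05, edgeR adjusted p = 0.000745). Got2, a mitochondrial aspartate aminotransferase that can also act on kynurenine, fell (log2 fold change -0.38, standard error 0.05, edgeR adjusted p = 0.00202). Aldh8a1, which oxidises the product of Acmsd, was named after its values were seen. It had 361, 370 and 379 CPM in TG+ and 459, 546 and 460 CPM in TG−, a log2 fold change of -0.40 (standard error 0.08, edgeR adjusted p = 0.00814). Kyat3, another kynurenine aminotransferase, had a log2 fold change of 0.022 (edgeR adjusted p = 0.836).

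In the list of NAD synthesis after Qprt together with NAD salvage, 5 of 9 genes tested fell and 1 rose at an adjusted p below 0.05. Nmnat3 (log2 fold change -0.43, standard error 0.07, edgeR adjusted p = 0.00353) and Nmnat1 (-0.44, standard error 0.08, edgeR adjusted p = 0.0077), which join the mononucleotide to adenylate, fell to 0.740 and 0.735 of the TG− level. Nadk, the cytosolic NAD kinase and the most abundant gene of this list per length, fell from 253, 247 and 252 CPM in TG− to 216, 198 and 205 CPM in TG+ (log2 fold change -0.28, edgeR adjusted p = 0.00795). Nampt, named after its values were seen, was the gene that rose. This enzyme rebuilds NAD from nicotinamide, and it had 216, 258 and 221 CPM in TG+ and 166, 196 and 175 CPM in TG− (log2 fold change 0.37, standard error 0.09, edgeR adjusted p = 0.02), a call that was lost without the TG− mouse 43-26 (edgeR adjusted p = 0.0609) or 43-76 (0.0743). Among those that fell, Nadsyn1 was not called without any 1 of 5 of the 6 mice (43-29, 43-49, 43-75, 43-50 or 43-76, edgeR adjusted p from 0.0613 to 0.143). Nmrk2 had at most 1 read in any mouse.

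Of 7 genes that use NAD or clear nicotinamide, 2 rose and 0 fell. Aox1, an aldehyde oxidase that oxidises methylated nicotinamide, had 7.14, 5.62 and 7.73 CPM in TG+ and 0.643, 0.613 and 0.389 CPM in TG−. Its log2 fold change of 3.62 (standard error 0.21, edgeR adjusted p = 3.66e-05) was the largest among the 50 genes. The other, Cd38, which splits NAD (log2 fold change 0.69), was not called without mouse 43-29, 43-75, 43-50 or 43-76 (edgeR adjusted p from 0.0502 to 0.101). Parp1, the most abundant of this list per length, had a log2 fold change of -0.031 (edgeR adjusted p = 0.759). Among 8 transporters of large neutral amino acids, 2 rose and 2 fell, of which Slc43a2 (log2 fold change -0.34) was not called without mouse 43-29, 43-49, 43-50 or 43-76 (edgeR adjusted p from 0.0569 to 0.11). Slc7a5, the light chain of the LAT1 exchanger that carries tryptophan and kynurenine, rose from 3.35, 2.75 and 2.93 CPM in TG− to 8.19, 8.82 and 7.35 CPM in TG+ (log2 fold change 1.43, standard error 0.12, edgeR adjusted p = 0.0002). Tmem27 (collectrin), which holds the apical transporter Slc6a19 at the brush border and was the most abundant of this list per length, fell (log2 fold change -0.39, standard error 0.08, edgeR adjusted p = 0.00991). Slc6a19 itself varied widely, with 284 to 515 CPM in TG+ and 450 to 594 CPM in TG− (edgeR adjusted p = 0.251). It was called lower only when the mice that the submitters list together were taken as pairs (edgeR adjusted p = 0.0264).

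For the other uses of tryptophan, 1 of 6 genes tested rose, the serotonin transporter Slc6a4 (log2 fold change 0.47, standard error 0.11, edgeR adjusted p = 0.017), and 0 fell. Without mouse 43-75 its adjusted p was 0.0501 in edgeR's test, and without mouse 43-26 it was 0.0523. Ddc, the most abundant of these per length, had a log2 fold change of -0.075 (edgeR adjusted p = 0.805). The tryptophan hydroxylases had few reads, at most 10 of Tph1 and 3 of Tph2 in any mouse. Among receptors of kynurenine products and the genes around them, 3 of 8 rose and 1 fell. Cyp1b1, one of the 3, was not called without mouse 43-76 (edgeR adjusted p = 0.0546) or without mouse 43-75, where its adjusted p reached the limit. Gpr35, a receptor of kynurenic acid, had 2.35, 2.34 and 2.45 CPM in TG+ and 1.42, 1.03 and 1.47 CPM in TG− (log2 fold change 0.86, standard error 0.17, edgeR adjusted p = 0.00864). Ahr, the aryl hydrocarbon receptor, rose (0.38, standard error 0.07, edgeR adjusted p = 0.00664). Nqo1, which both this receptor and NRF2 are known to induce, fell from 54.0, 54.8 and 56.6 CPM in TG− to 37.1, 35.8 and 37.3 CPM in TG+ (log2 fold change -0.59, standard error 0.05, edgeR adjusted p = 0.000231). Cyp1a1, the classic target of the receptor, had 0.869, 0.458 and 0.896 CPM in TG+ and 0.643, 0.770 and 0.655 CPM in TG− (edgeR adjusted p = 0.843).

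Interferon gamma signalling, a known inducer of Ido1, was followed in 7 genes, of which 6 were tested. Ifng itself had between 1 and 6 reads in every mouse. Jak2 (log2 fold change 0.31, edgeR adjusted p = 0.00597), Ifngr1 (0.58, edgeR adjusted p = 0.00751) and Irf1 (0.60, edgeR adjusted p = 0.00782) rose, and 0 fell. Jak1, the most abundant of the list per length, had a log2 fold change of -0.067 (edgeR adjusted p = 0.458). The lymphocyte and macrophage marker sums given above were also higher in TG+, and their part in the values of this list was not tested.

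**Figure D4:**
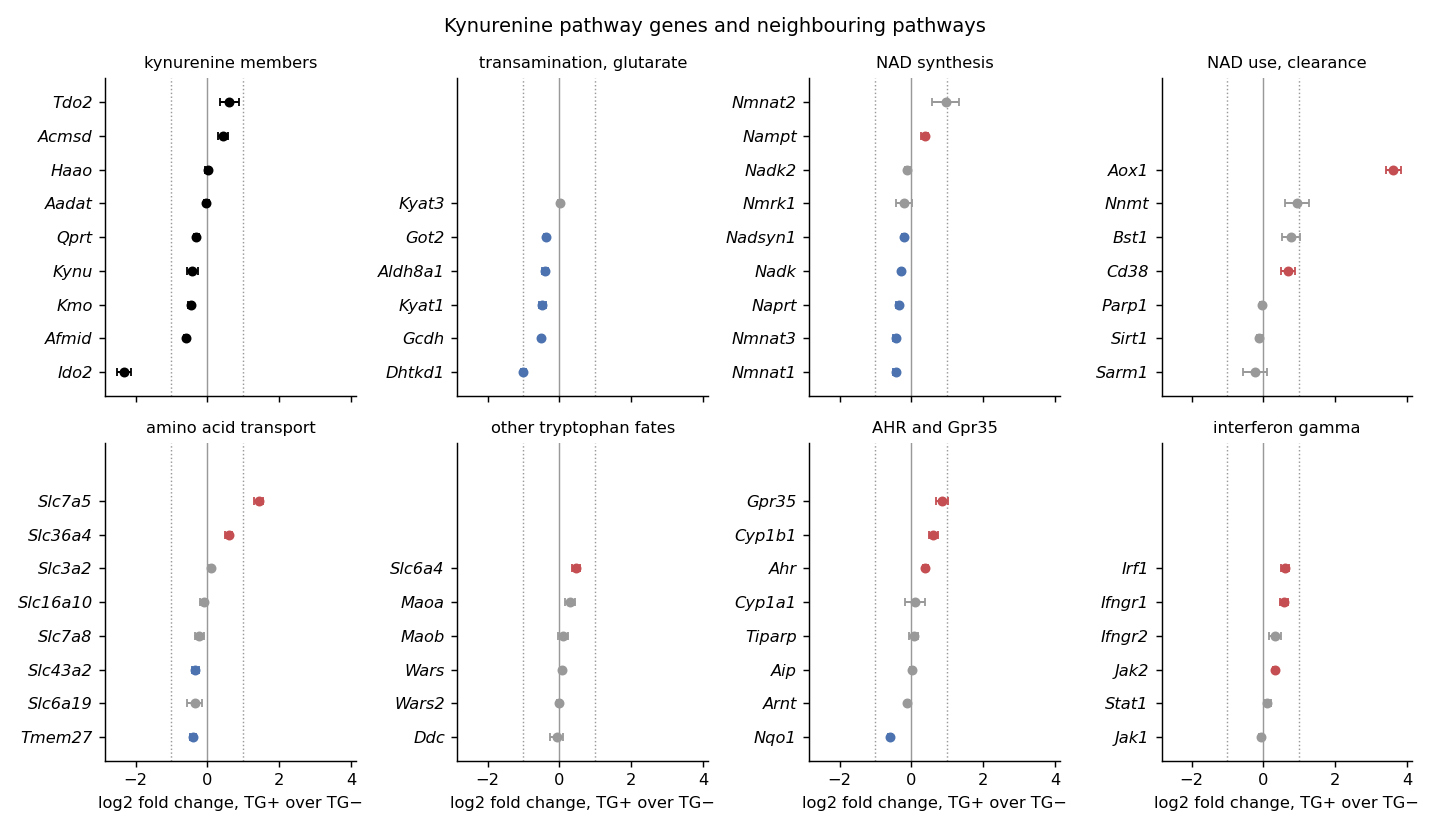
Log2 fold change of TG+ over TG− (horizontal axes) with its standard error for the 9 members tested (black, no test shown) and for the 50 tested genes of 7 neighbouring lists, in red where higher and in blue where lower at an adjusted p below 0.05, and grey otherwise. Dotted lines mark a 2-fold change. Ido2 at -2.32, Aox1 at 3.62 and Slc7a5 at 1.43 lie outside them, and Dhtkd1 lies on the lower line.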

How the data were processed

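RNA from a thin slice of kidney cortex was sequenced by the authors as 51-bp single-end reads and analysed mainly with the Tuxedo tools. The build is mm9 per the labels. The annotation release, the counting program and the handling of strand are not given in the sources used here. The authors deposited read counts of 37681 Ensembl genes in 12 libraries, without normalization, and RPKM values scaled by a method the header calls BUQ, which are proportional to the count plus 1. The 12 columns of log2 RPKM and the 14 columns of averages and of the authors' own comparisons (fold changes, p-values and q-values) were not used.

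The members and lists were chosen with earlier results of these data known. Samples were grouped by the genotype in the labels. Counts of the 2 kidneys of a mouse were summed, filtered with filterByExpr, scaled by TMM factors (0.9442 to 1.065) and compared between 3 TG+ and 3 TG− mice. The comparison was the quasi-likelihood test of edgeR 4.0.16 in R 4.3.3 (limma 3.58.1 was loaded with it), and p-values were adjusted by Benjamini-Hochberg for 19399 genes. The p-values of TG+ against TG− set the group difference against the variation between mice of a group, as edgeR estimates it from these 6 animals. The kidneys were compared with single libraries and the mouse as a block. The procedure was also run on simulated counts, and the outcome is not given here. Named are all 10 members and, from each list, genes past the study's threshold, otherwise up to 3 with the smallest adjusted p below 0.05, and the most abundant gene; other genes were named after their values were seen. Symbols, positions and exon lengths came from GENCODE M21 (GRCm38), matched by Ensembl identifier for 32642 genes, and promoter sequences from RefSeq (GRCm38.p6). Promoter windows of 6 members were searched and 4 are printed. One further sequence is not reported here. Alternatives were DESeq2 (1.42.0), upper-quartile scaling, library size alone, centring on the median gene, every gene with a read kept, single kidneys as samples, a pair block, other limits, and leaving out each mouse. Groups of 3 mice are too small for the test of outlying samples. Tables were made in Python 3.11.15 (pandas 2.3.3, scipy 1.17.1, numpy 2.4.6) and plots with matplotlib 3.10.9.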

Additional observations from a re-analysis of the deposited data

How the results depend on the processing

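Direction and side of the threshold held for the member counts under every alternative scaling, filter and left-out mouse, with 0 members higher and 1 lower (Ido2). These fits use the same mice and the contrast on which the pathway was selected, so they describe the processing and are no further support. Only the limits changed these counts. With no fold limit, 3 members were lower at an adjusted p below 0.01, and at an adjusted p below 0.05 there were 1 higher and 4 lower. The median log2 fold change of the members lay between -0.34 and -0.25 without single mice and was -0.19 with library size alone, a scaling that moved the median of all genes from 0.01 to 0.13. By unrounded values, Haao changed sign in 6 and Aadat in 3 of 13 alternatives, and the other 7 members tested in none (12 alternatives for Tdo2).

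Among the other pathway genes, 2 were higher in each of these settings apart from the limits, and the number lower was 1 in place of 0 (Dhtkd1) with DESeq2, upper-quartile scaling, centring on the median gene or no filter, and between 0 and 1 without single mice (1 without 43-49, 43-26 or 43-50). With no fold limit the numbers were 8 higher and 9 lower at an adjusted p below 0.01, and 12 higher and 13 lower at an adjusted p below 0.05. Over all genes, leaving out mouse 43-76 gave 469 higher and 30 lower in place of 732 and 41, and library size alone gave 927 higher and 22 lower. At an adjusted p below 0.05 alone, library size alone also ended the calls of Qprt, Nadsyn1 (edgeR adjusted p = 0.344) and Slc43a2 (0.142), and no filter ended that of Nadsyn1. The calls that left-out mice ended are given beside the genes. Between kidneys, 0 members were called in all alternatives run.

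The submitters list the mice as pairs, 49 with 50, 29 with 26 and 75 with 76, without saying what links the mice of a pair. Deviations from the group means correlated at 0.296, 0.337 and -0.0236 in these pairs. In the other combinations of a TG+ and a TG− mouse they correlated at -0.347 to 0.0358. The pairs 49 with 50 and 29 with 26 were above all of these, and 75 with 76 was not. These values do not settle if the mice are paired, so the main fit ignored pairs and a pair block was an alternative. With this pair block 785 genes were higher and 48 lower, and the member counts were 0 and 1. At an adjusted p below 0.05, the block changed 1 call among the members and other pathway genes, that of Slc6a19, which was lower with the block (edgeR adjusted p = 0.0264, against 0.251 without it). Depth limits Ido1 and Tdo2, which had at most 13 and 22 reads in any mouse.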

Other observations

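Some values stood out after the data had been seen. Differences between the kidneys of a mouse in Aadat went with those in Umod, the thick ascending limb marker. Over the 6 mice, Pearson's r between the log2 kidney differences of Aadat and Umod was 0.87 (exact permutation p = 0.00833, adjusted p = 0.0667 over 8 members) and Spearman's rho was 0.94 (exact permutation p = 0.0167, adjusted p = 0.0667), and r was 0.83 without the 2 mice farthest from the median of Umod. Neither adjusted value passed 0.05, and the adjustment does not cover the choice of Umod as the marker, so the relation is a description. In mouse 43-29, kidney 2 was higher by 0.28 in Aadat and 0.80 in Umod on the log2 scale, and in mouse 43-49 the log2 differences were -0.54 and -0.41. Kmo went the other way, with Pearson's r of -0.88 against Umod (exact permutation p = 0.0389, adjusted p = 0.156), -0.78 without the 2 farthest mice, and Spearman's rho of -0.77 (exact permutation p = 0.103, adjusted p = 0.206). Pearson's r of Acmsd was -0.86 (exact permutation p = 0.0833, adjusted p = 0.222) and 0.03 without the 2 farthest mice, so it rested on those, and its Spearman's rho was -0.26 (exact permutation p = 0.658, adjusted p = 0.752). Afmid had Pearson's r of -0.63 (exact permutation p = 0.194, adjusted p = 0.311; -0.44 without the 2 farthest mice) and Spearman's rho of -0.83 (exact permutation p = 0.0583, adjusted p = 0.156). The other 3 had Pearson's r of -0.38 (Kynu), 0.11 (Haao) and 0.28 (Qprt) and Spearman's rho of -0.49, -0.09 and 0.43, with exact permutation p from 0.356 to 0.919 and adjusted p from 0.559 to 0.919. Over the 4 mice left without the 2 farthest, their r was -0.78 for Kynu, -0.88 for Haao and -0.78 for Qprt. Spearman's rho of Ido2 with Umod was also 0.94 (exact permutation p = 0.0167, adjusted p = 0.0667), with Pearson's r of 0.68 (exact permutation p = 0.171, adjusted p = 0.311).

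Nmrk1, a kinase that makes nicotinamide mononucleotide from its riboside, split the mice across genotypes. Mouse 43-26 (TG−) had 59.4 and 57.7 CPM in its kidneys and mouse 43-75 (TG+) had 54.6 and 53.7 CPM, whereas the 8 libraries of the other 4 mice lay between 78.3 and 101 CPM. The kidneys of a mouse differed by at most 1.04-fold. The comparison of TG+ with TG− gave a log2 fold change of -0.20 (standard error 0.22, edgeR adjusted p = 0.546).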
